A study of Mus musculus with 12 samples.

Results

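The 42 genes described here encode the NF-κB subunits, their inhibitors and signalling proteins, and chemokines, cytokines, adhesion molecules and enzymes. Many of them, but not all, are known to be controlled by NF-κB. They are 42 of the 46983 genes counted and were taken as a named list of symbols, each matched to 1 Ensembl gene. The RNA came from mouse primary hepatocytes, the main cell of the liver, freshly isolated and then cultured. The donors were C57BL/6/J mice in which CRISPR/Cas9 had changed 2 amino acids of AEG-1 (AEG-1-L24K/L25H, here the knock-in) and their AEG-1-WT littermates (wild type), bred from heterozygous parents and kept on regular chow. AEG-1 is encoded by Mtdh. Each genotype was given CP775146, a PPAR-alpha agonist, at 2.5 µM for 24 h, or was left untreated. The 4 groups of 3 libraries were therefore knock-in with CP775146, untreated knock-in, wild type with CP775146 and untreated wild type. The labels name no vehicle for the untreated cultures and give neither the age nor the sex of the donors. Nothing in them says that the 3 libraries of 1 group stem from separate mice or cultures, so the spread between them, and every p-value built on it, may be technical. Genotype and the donor mice or cell preparations behind it cannot be told apart.

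NF-κB dimers are built from Rel proteins and are held in the cytoplasm by inhibitors of the IκB family. When IκB kinase marks those inhibitors for destruction, the dimers enter the nucleus and induce chemokines, adhesion molecules and, as a brake, their own inhibitors. AEG-1 is known to promote NF-κB activity, and the altered residues lie in an LXXLL motif through which AEG-1 binds the nuclear receptor RXR. RXR is the partner of PPAR-alpha, a fatty acid receptor that is known to restrain inflammatory genes in the liver.

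Libraries held 26956032 to 34885451 gene-assigned reads, and levels are expressed as CPM (reads of a gene relative to the scaled size of its library), so that 3 counts equalled 0.0844 to 0.113 CPM. Library sizes were TMM-scaled, a scaling that takes most genes as equal between libraries. Fold changes are log2 ± SE from 1 edgeR quasi-likelihood fit over all 12 libraries. A gene was called changed at a Benjamini-Hochberg adjusted p below 0.05 over the 15664 genes tested. Libraries of a group varied more in wild type, with a coefficient of biological variation of 5.32% with CP775146 and 5.09% untreated, than in the knock-in, at 2.61% and 2.57%. Mtdh averaged 193 ± 3.72 CPM in knock-in with CP775146, 173 ± 1.98 CPM in untreated knock-in, 181 ± 4.32 CPM in wild type with CP775146 and 166 ± 8.47 CPM in untreated wild type (SD, n = 3 each). Gene-level counts do not show the amino acid change, so Mtdh does not check the genotype labels. The 8 hepatocyte markers summed to 76100 to 79040 CPM in knock-in with CP775146, 84540 to 89090 CPM in untreated knock-in, 121900 to 128800 CPM in wild type with CP775146 and 121800 to 124700 CPM in untreated wild type. Compared with wild type, 4 of the 8 were called in the untreated knock-in, all of them lower (50%, against 18.6% of all genes). With CP775146, 6 fell (75%, against 22% of all genes) and 1 rose (12.5%, against 20.5%) in the knock-in. Alb (albumin) alone averaged 70529 ± 2268 CPM in untreated knock-in and 102106 ± 1645 CPM in untreated wild type (−0.53 ± 0.04 log2, edgeR adjusted p = 6.72e-13), and without it the group means summed to 16550 and 20690 CPM in the same groups. The part of the lower hepatocyte markers in the genotype results was not tested. Markers of other liver cells were present at far lower levels and are given beside the results they move with. In bulk RNA, fewer cells of a type and less RNA per cell cannot be told apart.

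Of the 42 genes, 30 passed the filter on low counts and 12 did not. The classical acute inflammatory cytokines were among the 12: Il6 and Csf2 had 0 counts in all 12 libraries, which allows up to 0.0844 to 0.113 CPM per library (counting error only). Tnf, the best-known cytokine trigger of the pathway, had 2 counts over all libraries, and Il1b had 10. In 7 of the 12 genes no library exceeded 3 counts: Il6, Csf2, Tnf, Cxcl5, Ccl3, Ccl4 and Traf1. Cxcl14 had 24 counts in all. For these genes differences between groups were not detectable at this depth. The remaining 3 held a few more reads. Ptgs2, the inducible cyclooxygenase, summed to 21 counts over the libraries of knock-in with CP775146, 9 in untreated knock-in, 4 in wild type with CP775146 and 0 in untreated wild type. Ccl6, a myeloid CC chemokine, summed to 19, 36, 5 and 9 counts in the same groups, and Il1a to 13, 12, 12 and 28. The plot of the raw counts of these 12 genes shows that 14 reads, for Ccl6 in an untreated knock-in library, was the most that any of them reached.

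**Figure D1:**
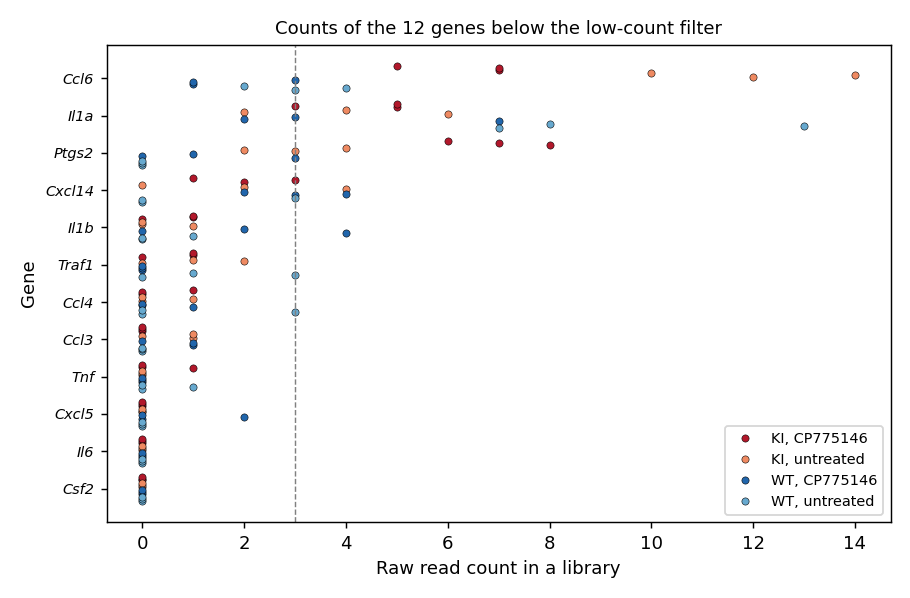
Raw read counts (x axis, reads per library) of the 12 genes below the filter, 1 point per library and coloured by group, with points of a gene spread vertically for legibility. The dashed line marks 3 counts; Il6 and Csf2 sit at 0 in every library, and only Ccl6 passes 13.

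The 30 tested genes stood higher in the knock-in than in wild type in most cases. Without treatment, 20 rose in the knock-in (66.7%), against 18.4% of all genes tested, and 8 of the 20 differed by at least 2-fold, against 3.01% of all genes. With CP775146, 22 rose in the knock-in (73.3%), against 20.5% of all genes, 9 of them by at least 2-fold, against 3.26% of all genes. Their median difference was 0.42 log2 untreated and 0.40 log2 with CP775146, against −0.004 and −0.013 log2 over all genes tested. In each condition edgeR called 0 of the 30 lower in the knock-in, where 18.6% and 22% of all genes were called lower. DESeq2 and limma voom also called 0 lower, and at an unadjusted p below 0.05 edgeR had 0 lower in either condition. The libraries of the knock-in and wild type did not overlap for 22 of the 30 genes in each condition, the knock-in always above, against 23.6% of all genes above without treatment and 24.9% with CP775146. Cxcl2, Cx3cl1, Ccl7 and Ccl20, counted as at least 2-fold in both conditions, reached the filter level in enough libraries only through the knock-in. Il1a, highest in untreated wild type, did not pass the filter and was called lower in the untreated knock-in without it. The shares called thus depend in part on the filter. With a filter of 5 CPM in 3 libraries, 16 of 23 genes rose untreated, against 23.5% of all genes, and 0 fell. The 42 genes were listed with earlier results of the same libraries known, so the counts describe them and are no independent evidence of a direction.

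The same 19 genes were called higher in the knock-in under both conditions. They were Nfkb1, Nfkb2, Rel, Relb, Nfkbiz, Tnfaip2, Tnfaip3, Birc3, Icam1, Cxcl1, Cxcl2, Cxcl12, Cxcl16, Cx3cl1, Ccl2, Ccl7, Ccl9, Ccl20 and Csf1. The share of all genes called higher in both conditions was not computed. Both comparisons come from 1 fit, and the labels do not say whether treated and untreated cultures shared mice. The treated comparison is therefore no independent repeat of the untreated one. In addition, Sod2 was called without treatment, and Nfkbib, Nfkbie and Cxcl13 with CP775146. The difference between the conditions was not called for any of these 4 genes (edgeR adjusted p = 0.228, 0.132, 0.651 and 0.0808), except that of Nfkbib without untreated wild-type replicate 3 (edgeR adjusted p = 0.0472) and that of Cxcl13 as given below. Nfkbia, Vcam1, Ccl5 and Ccl25 were called in none of the comparisons, although under total-count scaling Nfkbia was called higher in the untreated knock-in (0.20 log2, edgeR adjusted p = 0.00153). The heat map of the fold changes sets the 4 comparisons side by side by role.

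**Figure D2:**
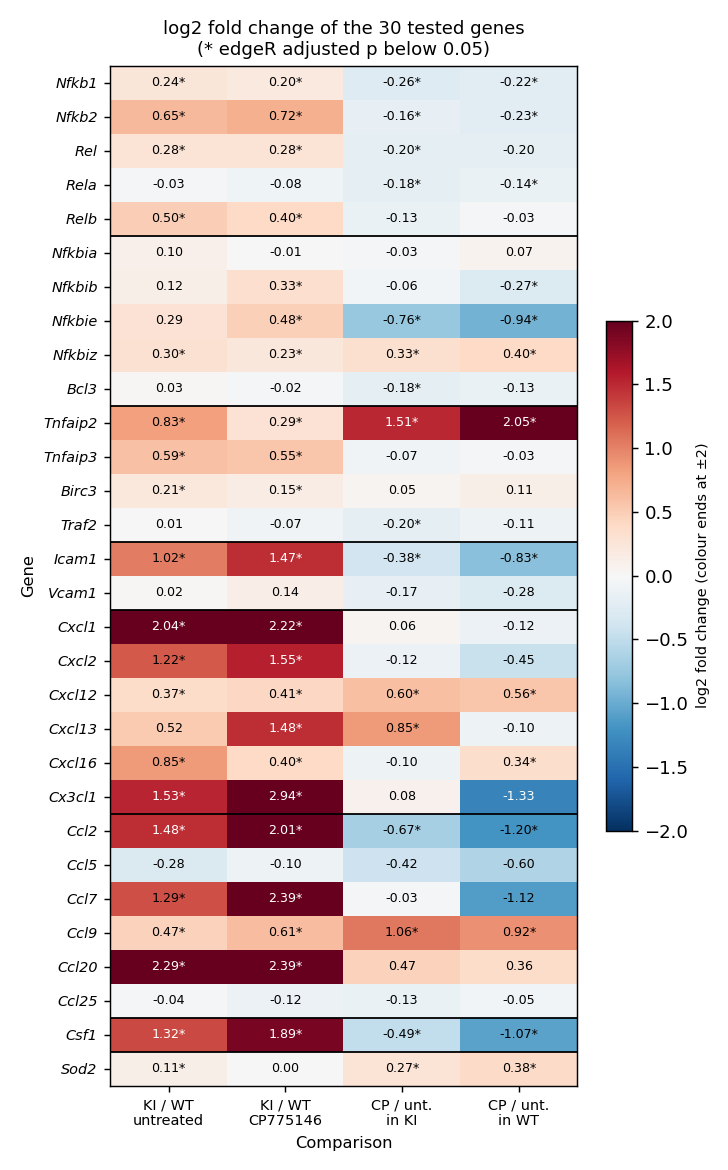
Log2 fold change of each of the 30 tested genes (rows, grouped by role) in 4 comparisons (columns), with the value printed in each cell and an asterisk at an edgeR adjusted p below 0.05; colour ends at ±2. The knock-in columns hold 20 and 22 starred cells, all positive, while the CP775146 columns hold starred cells of both signs.

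Macrophages are a known source of several of these transcripts, so their markers were read in the same libraries. The 15 markers summed to 114 to 128.5 CPM in knock-in with CP775146, 161.4 to 172.2 CPM in untreated knock-in, 190.5 to 195.5 CPM in wild type with CP775146 and 221.4 to 261.4 CPM in untreated wild type. Most of that sum was Cd68. Without Cd68, left out after its level was seen, the group means summed to 11.1, 15.4, 8.97 and 13.3 CPM in the same order. None of the 15 was at 0 in every library. In the knock-in, 3 of 13 tested macrophage markers rose (23.1%) and 2 fell (15.4%) without treatment, and 5 rose (38.5%) and 1 fell (7.69%) with CP775146. Of all genes tested, 18.4% rose and 18.6% fell in the knock-in without treatment, and 20.5% rose and 22% fell with CP775146. Cd68 itself averaged 151 ± 4.50 CPM in untreated knock-in and 234 ± 22.2 CPM in untreated wild type (−0.63 ± 0.06 log2, edgeR adjusted p = 7.52e-09), and Mrc1, the mannose receptor, 1.401 ± 0.437 CPM and 2.19 ± 0.136 CPM in the same groups (−0.63 ± 0.21 log2, edgeR adjusted p = 0.0159). In the other direction, C1qa, a complement gene of tissue macrophages, averaged 2.32 ± 0.317 CPM in untreated knock-in and 1.54 ± 0.259 CPM in untreated wild type (0.59 ± 0.18 log2, edgeR adjusted p = 0.00824), and Marco, a scavenger receptor, 1.249 ± 0.151 CPM and 0.710 ± 0.120 CPM in the same groups (0.82 ± 0.27 log2, edgeR adjusted p = 0.0152). Endothelial markers summed to 69.5 to 76.7 CPM in untreated knock-in and 99.3 to 110.5 CPM in untreated wild type, and stellate and fibroblast markers to 136.8 to 151.5 and 218.3 to 249.9 CPM in the same 2 groups. Stab2 and Reln held most of these differences: without Stab2 the endothelial means summed to 39.0 CPM in untreated knock-in and 38.6 CPM in untreated wild type, and without Reln the stellate and fibroblast means summed to 35.1 and 39.0 CPM in the same groups. Of 11 tested endothelial markers 2 rose (18.2%) and 4 fell (36.4%) in the untreated knock-in. Among 10 tested stellate and fibroblast markers 4 were called (40%), all of them lower. The shares of all genes are those given above. Cholangiocyte markers, of the bile duct cells, summed to 161.2 to 166 CPM in knock-in with CP775146, 147.9 to 151 CPM in untreated knock-in, 160.2 to 170.4 CPM in wild type with CP775146 and 114 to 116.6 CPM in untreated wild type. Of 8 tested cholangiocyte markers, 6 rose (75%) and 1 fell (12.5%) in the untreated knock-in. The 12 neutrophil and lymphocyte markers summed to at most 0.34 CPM in any library. The part of these other cells in the results that follow was not tested.

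Of the 5 NF-κB subunit genes, 4 rose in the knock-in in both conditions: Nfkb1 (p105/p50), Nfkb2 (p100/p52), Rel (c-Rel) and Relb. That was 80% in each condition, against 18.4% of all genes untreated and 20.5% with CP775146. Rela (p65) did not pass the test in either. Rela was the most abundant of the 30 per length in untreated wild type, at 48.5 CPM per kb of exon in untreated knock-in and 49.7 CPM per kb in untreated wild type. Nfkb2, precursor of the p52 subunit of the non-canonical arm, changed most. It had 69.6, 72.2 and 74.5 CPM in the untreated knock-in libraries, against 44.4, 46.8 and 46.7 CPM in untreated wild type, and 63.9, 61.7 and 67.5 CPM in knock-in with CP775146, against 42.1, 38.0 and 37.3 CPM in wild type with CP775146. All 6 knock-in libraries lay above all 6 of wild type, and the differences were 0.65 ± 0.05 log2 untreated (edgeR adjusted p = 6.22e-12) and 0.72 ± 0.05 log2 with CP775146 (edgeR adjusted p = 8.41e-13). Relb, the partner of p52, averaged 15.5 ± 0.581 CPM in untreated knock-in and 10.98 ± 0.788 CPM in untreated wild type (0.50 ± 0.08 log2, edgeR adjusted p = 4.45e-06). Nfkb1 and Rel differed less, by 0.24 ± 0.05 and 0.28 ± 0.08 log2 without treatment (edgeR adjusted p = 0.000248 and 0.00667). The difference for Rela was −0.03 ± 0.04 log2 untreated and −0.08 ± 0.04 log2 with CP775146.

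Of the 5 IκB genes, 1 rose in the untreated knock-in (20%, against 18.4% of all genes) and 3 in the knock-in with CP775146 (60%, against 20.5% of all genes). Nfkbia encodes IκBα, the classical feedback inhibitor, and averaged 42.0 ± 1.605 CPM in untreated knock-in and 39.2 ± 0.836 CPM in untreated wild type (0.10 ± 0.05 log2, edgeR adjusted p = 0.123). Nfkbiz, the nuclear inhibitor IκBζ that also serves as a coactivator, rose in the knock-in in both conditions (0.30 ± 0.07 log2 untreated and 0.23 ± 0.07 log2 with CP775146, edgeR adjusted p = 0.000886 and 0.00536). Nfkbie (IκBε) carried the clearest response of the family to the agonist. It had 2.95, 3.86 and 3.04 CPM in knock-in with CP775146, against 5.33, 5.96 and 5.34 CPM in untreated knock-in, and 2.76, 1.91 and 2.38 CPM in wild type with CP775146, against 4.91, 4.66 and 4.01 CPM in untreated wild type. Treated and untreated libraries did not overlap in either genotype, and Nfkbie fell by 0.76 ± 0.13 log2 in the knock-in and by 0.94 ± 0.15 log2 in wild type (edgeR adjusted p = 1.81e-05 and 4e-06). Untreated, the knock-in libraries of Nfkbie lay above those of wild type, with a difference that did not pass (0.29 ± 0.12 log2, edgeR adjusted p = 0.0664). It passed under total-count scaling (0.39 log2, edgeR adjusted p = 0.0114), with the compared groups alone (edgeR adjusted p = 0.0452) and without the filter on low counts (edgeR adjusted p = 0.0484). The genotypes differed in Nfkbie with CP775146 (0.48 ± 0.15 log2, edgeR adjusted p = 0.0102). The treated difference did not pass without replicate 2 of knock-in with CP775146 (0.35 log2, edgeR adjusted p = 0.09) or replicate 2 of wild type with CP775146 (0.35 log2, edgeR adjusted p = 0.0798). Nfkbib (IκBβ) rose in the knock-in with CP775146 (0.33 ± 0.06 log2, edgeR adjusted p = 2.72e-05). Untreated, its difference of 0.12 ± 0.06 log2 passed without wild-type replicate 2 (0.17 log2, edgeR adjusted p = 0.0359) and under total-count scaling (0.22 log2, edgeR adjusted p = 0.0017). It fell with CP775146 in wild type (−0.27 ± 0.06 log2, edgeR adjusted p = 0.000433). On the other strand, exons of Sirt2, with 34571 counts in all against 9236 for Nfkbib, cover 1.94% of the exon bases of Nfkbib, and those of Ccer2, with 1 count in all, cover 14.3%. Reads of those stretches cannot be assigned. Bcl3, a nuclear IκB protein that binds p50 and p52, showed no genotype call and fell slightly with CP775146 in the knock-in (−0.18 ± 0.06 log2, edgeR adjusted p = 0.0143). That call was lost without untreated knock-in replicate 2 (edgeR adjusted p = 0.0584) or 3 (edgeR adjusted p = 0.0505) and without treated knock-in replicate 2 (edgeR adjusted p = 0.0924).

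Among the signalling and feedback genes, Tnfaip3 was called for the genotype in both conditions and for the agonist in neither genotype. Under total-count scaling, Tnfaip3 was called lower with CP775146 in the knock-in (−0.14 log2, edgeR adjusted p = 0.0288). It encodes A20, the ubiquitin-editing enzyme that shuts NF-κB signalling off. Tnfaip3 had 47.2, 49.2 and 49.6 CPM in untreated knock-in, against 33.1, 29.7 and 34.1 CPM in untreated wild type, and 46.0, 45.7 and 47.2 CPM in knock-in with CP775146, against 32.8, 30.4 and 31.9 CPM in wild type with CP775146. The genotypes were separated in both conditions (0.59 ± 0.05 log2 untreated and 0.55 ± 0.05 log2 with CP775146, edgeR adjusted p = 1.22e-10 and 4.57e-10), while treated and untreated libraries overlapped in each genotype. Birc3 (cIAP2), a ubiquitin ligase of the TNF receptor complex, rose by a smaller amount (0.21 ± 0.05 log2 untreated, edgeR adjusted p = 0.00158). With CP775146 the Birc3 difference was 0.15 ± 0.05 log2 (edgeR adjusted p = 0.0184), and the call was lost without replicate 3 of knock-in with CP775146 (edgeR adjusted p = 0.0861) or replicate 3 of wild type with CP775146 (edgeR adjusted p = 0.0723). Traf2, an adaptor of TNF receptors, showed no genotype call.

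Tnfaip2, a TNF-inducible gene with roles in membrane protrusion, had the largest response to CP775146 of the 30. It had 62.3, 62.0 and 64.4 CPM in knock-in with CP775146, against 21.7, 22.0 and 22.4 CPM in untreated knock-in, and 52.4, 51.7 and 50.0 CPM in wild type with CP775146, against 13.0, 12.8 and 11.5 CPM in untreated wild type. The 4 groups did not overlap at any point. CP775146 raised Tnfaip2 by 1.51 ± 0.05 log2 in the knock-in (edgeR adjusted p = 3.32e-21) and by 2.05 ± 0.06 log2 in wild type (edgeR adjusted p = 2.7e-23). The response was smaller in the knock-in by 0.54 ± 0.07 log2 (edgeR adjusted p = 1.21e-05), and the genotype difference was 0.29 ± 0.04 log2 with CP775146 (edgeR adjusted p = 3.72e-06) and 0.83 ± 0.06 log2 without it (edgeR adjusted p = 1.51e-12).

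Icam1 and Vcam1 encode ligands of leukocyte integrins on the cell surface, and Icam1 alone of them was called. Icam1 had 55.9, 54.7 and 55.2 CPM in untreated knock-in, against 28.1, 25.2 and 28.5 CPM in untreated wild type, and 44.4, 40.9 and 42.2 CPM in knock-in with CP775146, against 17.3, 15.2 and 13.4 CPM in wild type with CP775146. All knock-in libraries lay above all wild-type libraries, so that even treated knock-in cells held more than untreated wild type. The genotypes differed by 1.02 ± 0.06 log2 untreated (edgeR adjusted p = 6.05e-14) and by 1.47 ± 0.07 log2 with CP775146 (edgeR adjusted p = 1.09e-16). Icam1 fell with CP775146 in both genotypes (−0.38 ± 0.06 log2 in the knock-in and −0.83 ± 0.07 log2 in wild type, edgeR adjusted p = 3.62e-06 and 5.78e-11). Vcam1, which averaged 4.46 ± 0.198 CPM in untreated knock-in and 4.39 ± 0.514 CPM in untreated wild type, differed by 0.02 ± 0.12 log2. Whether the genotype effect on Icam1 differs from that on Vcam1 was not tested.

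Csf1 encodes the growth factor of monocytes and macrophages and was the one tested member of the cytokine group. Csf1 had 73.1, 75.9 and 75.1 CPM in untreated knock-in, against 30.2, 28.4 and 31.4 CPM in untreated wild type, and 53.5, 52.0 and 53.7 CPM in knock-in with CP775146, against 16.2, 14.6 and 11.8 CPM in wild type with CP775146. As for Icam1, every knock-in library exceeded every wild-type library. The differences were 1.32 ± 0.06 log2 untreated (edgeR adjusted p = 7.66e-16) and 1.89 ± 0.07 log2 with CP775146 (edgeR adjusted p = 3.12e-18). CP775146 lowered Csf1 by 0.49 ± 0.06 log2 in the knock-in and by 1.07 ± 0.07 log2 in wild type (edgeR adjusted p = 5.22e-08 and 1.22e-12). Csf1r, its receptor and a macrophage marker, averaged 2.14 ± 0.366 CPM in untreated knock-in and 1.88 ± 0.213 CPM in untreated wild type (edgeR adjusted p = 0.41).

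**Figure D3:**
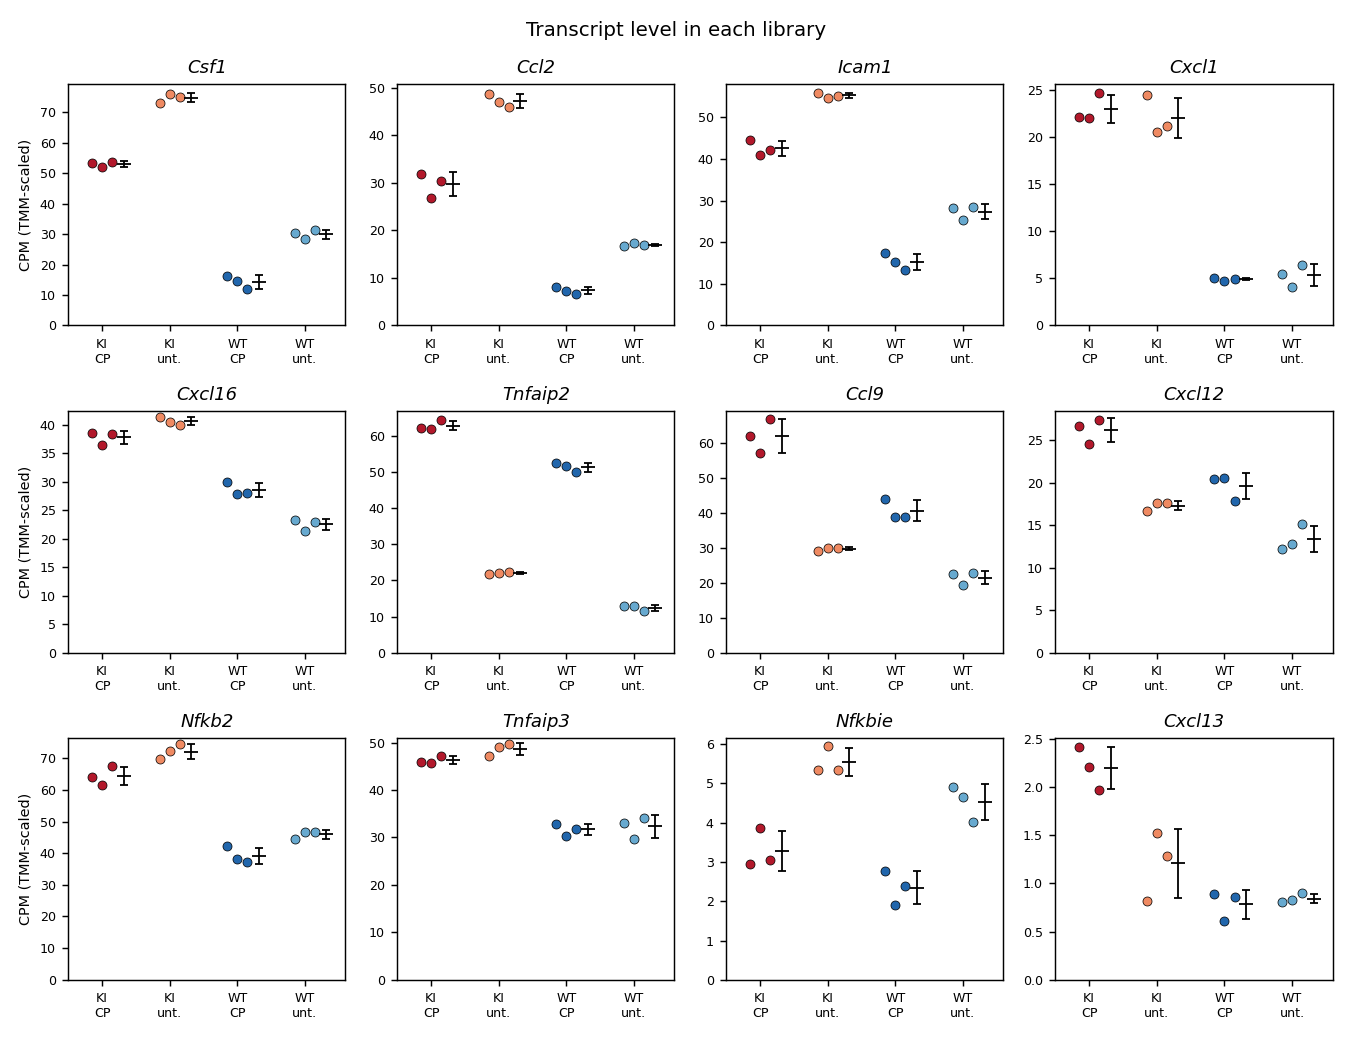
Level of 12 genes (y axis, TMM-scaled CPM, from 0) in each library, in the order knock-in with CP775146 (KI CP), untreated knock-in (KI unt.), wild type with CP775146 (WT CP) and untreated wild type (WT unt.); points are libraries, and the bar beside each group is its mean ± SD (n = 3). In the panels of Csf1, Ccl2, Icam1, Cxcl1, Cxcl16, Nfkb2 and Tnfaip3 all 6 knock-in points lie above all 6 wild-type points.

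CXC chemokines and Cx3cl1 gave some of the largest genotype differences. Cxcl1, a neutrophil attractant that hepatocytes can make, had 24.5, 20.6 and 21.1 CPM in untreated knock-in, against 5.46, 4.10 and 6.45 CPM in untreated wild type, and 22.2, 22.1 and 24.6 CPM in knock-in with CP775146, against 5.03, 4.76 and 4.98 CPM in wild type with CP775146. Every knock-in library lay above every wild-type library. Cxcl1 rose by 2.04 ± 0.10 log2 untreated (edgeR adjusted p = 4.77e-14) and 2.22 ± 0.10 log2 with CP775146 (edgeR adjusted p = 8.38e-15), and its treated and untreated libraries overlapped in both genotypes. Cxcl2, which acts on the same neutrophil receptor and lies 10.76 kb from Cxcl1 on chromosome 5, was far lower, at 18, 20 and 25 counts in untreated knock-in against 6, 9 and 7 in untreated wild type. It rose as well (1.22 ± 0.34 log2 untreated, edgeR adjusted p = 0.00556, and 1.55 ± 0.37 log2 with CP775146, edgeR adjusted p = 0.000988).

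Cxcl16 encodes a transmembrane chemokine that binds CXCR6 on T and NKT cells. It had 41.5, 40.5 and 40.1 CPM in untreated knock-in, against 23.3, 21.4 and 22.9 CPM in untreated wild type, and 38.6, 36.4 and 38.4 CPM in knock-in with CP775146, against 29.99, 27.8 and 28.0 CPM in wild type with CP775146. The genotypes were separated in both conditions, by 0.85 ± 0.05 log2 untreated (edgeR adjusted p = 5.56e-14) and by 0.40 ± 0.05 log2 with CP775146 (edgeR adjusted p = 1.3e-07). The exons of Cxcl16 share 18.3% of their bases with Zmynd15 on the other strand, and the counts carry no strand option, so reads of that stretch cannot be assigned. Zmynd15 held 594 counts in all, against 12143 for Cxcl16.

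Cxcl12, the CXCR4 ligand that retains leukocytes and progenitors in tissue, moved with both factors. It had 26.6, 24.6 and 27.4 CPM in knock-in with CP775146, against 20.5, 20.6 and 17.9 CPM in wild type with CP775146, and 16.7, 17.6 and 17.6 CPM in untreated knock-in, against 12.2, 12.7 and 15.2 CPM in untreated wild type. The knock-in was higher by 0.37 ± 0.08 log2 untreated (edgeR adjusted p = 0.000247) and 0.41 ± 0.07 log2 with CP775146 (edgeR adjusted p = 1.1e-05). CP775146 raised Cxcl12 by 0.60 ± 0.07 log2 in the knock-in and 0.56 ± 0.08 log2 in wild type (edgeR adjusted p = 2.63e-08 and 5.5e-07). Cxcl13, a B-cell attractant, had 2.41, 2.21 and 1.97 CPM in knock-in with CP775146, against 0.887, 0.613 and 0.855 CPM in wild type with CP775146, and 0.820, 1.53 and 1.28 CPM in untreated knock-in, against 0.806, 0.827 and 0.895 CPM in untreated wild type. The treated knock-in libraries stood above all others (1.48 ± 0.22 log2 against wild type with CP775146, edgeR adjusted p = 1.79e-06). Without treatment the Cxcl13 libraries overlapped (0.52 ± 0.24 log2, edgeR adjusted p = 0.0881), and the call was gained without untreated knock-in replicate 1 (0.73 log2, edgeR adjusted p = 0.017). Cx3cl1 (fractalkine) rested on few reads, 7, 14 and 15 counts in untreated knock-in against 3, 5 and 2 in untreated wild type (1.53 ± 0.53 log2, edgeR adjusted p = 0.0234). That Cx3cl1 call was lost in DESeq2 (adjusted p = 0.0828) and without untreated knock-in replicate 2 or 3 (edgeR adjusted p = 0.078 and 0.0841) or untreated wild-type replicate 1 or 3 (edgeR adjusted p = 0.0695 and 0.0917). With CP775146 it had 16, 13 and 9 counts in the knock-in against 1, 3 and 0 in wild type (edgeR adjusted p = 0.000371).

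Of the CC chemokines, Ccl2 (MCP-1), the monocyte attractant read by CCR2, was among the most abundant of the 30 genes per length in the untreated knock-in, at 41.5 CPM per kb of exon against 14.9 CPM per kb in untreated wild type. Ccl2 had 48.8, 46.9 and 45.9 CPM in untreated knock-in, against 16.7, 17.2 and 16.8 CPM in untreated wild type, and 31.8, 26.9 and 30.4 CPM in knock-in with CP775146, against 8.11, 7.32 and 6.66 CPM in wild type with CP775146. The 4 groups were fully separated. The knock-in was higher by 1.48 ± 0.06 log2 untreated (edgeR adjusted p = 1.3e-17) and by 2.01 ± 0.07 log2 with CP775146 (edgeR adjusted p = 2.9e-19). CP775146 lowered Ccl2 by 0.67 ± 0.06 log2 in the knock-in and 1.20 ± 0.08 log2 in wild type (edgeR adjusted p = 7.54e-11 and 1.92e-13). Its neighbour Ccl7, 8.26 kb away on chromosome 11 and also a CCR2 ligand, had 25, 28 and 22 counts in untreated knock-in against 6, 8 and 11 in untreated wild type. Ccl7 rose in the knock-in in both conditions (1.29 ± 0.33 log2 untreated, edgeR adjusted p = 0.00264, and 2.39 ± 0.39 log2 with CP775146, edgeR adjusted p = 9.92e-06).

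Ccl9, a CCR1 ligand of rodents, rose with both the genotype and the agonist. It had 62.1, 57.1 and 66.7 CPM in knock-in with CP775146, against 44.0, 38.7 and 38.9 CPM in wild type with CP775146, and 29.1, 29.9 and 30.1 CPM in untreated knock-in, against 22.5, 19.3 and 22.6 CPM in untreated wild type. CP775146 raised Ccl9 by 1.06 ± 0.06 log2 in the knock-in (edgeR adjusted p = 6.39e-14) and 0.92 ± 0.07 log2 in wild type (edgeR adjusted p = 8.47e-12), and the knock-in was higher by 0.47 ± 0.07 log2 without treatment (edgeR adjusted p = 3.41e-06). Ccl2 and Ccl9, both chemokines higher in the knock-in, thus moved in opposite directions with the agonist. Ccl20, the CCR6 ligand, had 18, 17 and 14 counts in untreated knock-in against 5, 0 and 3 in untreated wild type (2.29 ± 0.55 log2, edgeR adjusted p = 0.00144). Ccl5 (RANTES) and Ccl25 showed no genotype call. Ccl5 lay under 1 CPM in every group, with 13, 14 and 16 counts in untreated knock-in against 21, 12 and 10 in untreated wild type. Its difference of −0.28 ± 0.33 log2 (edgeR adjusted p = 0.538) is limited by that depth. Ccl25 averaged 7.13 ± 0.185 CPM in untreated knock-in and 7.34 ± 0.583 CPM in untreated wild type.

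Sod2, the mitochondrial superoxide dismutase and a classical NF-κB target, was among the most abundant of the set at 36.1 CPM per kb of exon in untreated knock-in and 33.3 CPM per kb in untreated wild type. It averaged 166 ± 1.81 CPM in knock-in with CP775146, 138 ± 1.73 CPM in untreated knock-in, 166 ± 8.39 CPM in wild type with CP775146 and 127 ± 3.43 CPM in untreated wild type. Sod2 rose with the agonist in both genotypes (0.27 ± 0.04 log2 in the knock-in and 0.38 ± 0.04 log2 in wild type, edgeR adjusted p = 2.02e-06 and 2.55e-09). Its genotype difference without treatment was small (0.11 ± 0.04 log2, edgeR adjusted p = 0.0244) and was lost without untreated knock-in replicate 3 (edgeR adjusted p = 0.0674) or untreated wild-type replicate 1 (edgeR adjusted p = 0.0976).

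Since these genes are linked by a transcription factor, their promoters were searched for its letters. The κB decamer was taken as GGGRNNYYCC (R is A or G, Y is C or T, N is any base), a loose 10-base consensus of sites bound by NF-κB dimers. It was sought on both strands of the 250 bases before each RefSeq gene start (GRCm38.p6), so genes with several starts had more windows. It was found for 2225 of 27025 genes (8.23%) and for 13 of the 32 listed genes that had a promoter entry (40.6%). Of the 14 genes with an entry that rose in the untreated knock-in, 10 held it (71.4%), as did 2 of the 8 tested genes not called (25%). These shares hang on the filter and the calls. Cxcl2 and Ccl20, with a match, and Cx3cl1, without, reached the filter only through the knock-in. Nfkbia and Nfkbie, the 2 not called, were called higher under total-count scaling. Sod2, with a match, lost its call in fits that left out a library. Whether a match goes with a rise was not tested. This is a description of letters in a window and does not show binding. The list itself was drawn up around NF-κB and holds many of its known targets. The windows below show 5 genes that rose in the knock-in and Nfkbia, which held a match and was not called. Each runs 5′ to 3′ on the strand of the gene, with the decamer in capitals.
Cxcl1, chr5:90891149-90891208, plus strand: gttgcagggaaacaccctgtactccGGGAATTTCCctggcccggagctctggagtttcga
Cxcl2, chr5:90903777-90903836, plus strand: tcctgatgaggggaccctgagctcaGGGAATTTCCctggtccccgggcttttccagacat
Nfkb2, chr19:46304673-46304732, plus strand: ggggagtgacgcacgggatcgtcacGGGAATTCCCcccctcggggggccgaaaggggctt
Csf1, chr3:107760589-107760648, minus strand: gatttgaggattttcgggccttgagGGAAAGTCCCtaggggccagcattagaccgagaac
Ccl20, chr1:83116661-83116720, plus strand: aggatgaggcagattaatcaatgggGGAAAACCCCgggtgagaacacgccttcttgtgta
Nfkbia, chr12:55492648-55492701, minus strand: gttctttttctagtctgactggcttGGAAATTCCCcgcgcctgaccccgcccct
A gene counted once, however many overlapping or opposite-strand matches it held. The neighbours Cxcl1 and Cxcl2 carried the same 10 letters, and their matches began 71 and 97 bases before the RefSeq starts. No match was found in the 250-base window of Icam1, one of the strongest genotype differences, and the window of Ccl2 was not searched.

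CP775146 moved the 30 genes in both directions. In the knock-in, 6 of the 30 rose (20%) and 10 fell (33.3%), against 18.1% and 19.1% of all genes tested. In wild type, 6 rose (20%) and 8 fell (26.7%), against 22.7% and 22.3% of all genes. Scaled by total counts, 6 rose and 13 fell in each genotype, with Relb, Tnfaip3 and Cxcl16 added to the falls in the knock-in. The median change was −0.11 log2 in the knock-in and −0.12 log2 in wild type, against −0.01 and −0.005 over all genes. Called lower in both genotypes were 7 genes, Nfkb1, Nfkb2, Rela, Nfkbie, Icam1, Ccl2 and Csf1, and called higher in both were 5, Nfkbiz, Tnfaip2, Cxcl12, Ccl9 and Sod2. The shares of all genes called in both genotypes were not computed. The falls of the subunits were small, −0.26 ± 0.05 log2 in the knock-in and −0.22 ± 0.05 log2 in wild type for Nfkb1 (edgeR adjusted p = 8.5e-05 and 0.00075). For Nfkb2 the fall in the knock-in was lost without treated knock-in replicate 2 (−0.13 log2, edgeR adjusted p = 0.0576), and for Rela that in wild type was lost without untreated replicate 2 (edgeR adjusted p = 0.0576) or treated replicate 2 (edgeR adjusted p = 0.0622). Traf2 and Rel were called lower in the knock-in (−0.20 ± 0.06 log2, edgeR adjusted p = 0.0163, and −0.20 ± 0.08 log2, edgeR adjusted p = 0.0468) and not in wild type, and the difference between the genotypes was not called for either. Traf2 was lost without untreated knock-in replicate 1 (edgeR adjusted p = 0.0944) or 2 (edgeR adjusted p = 0.0759) or treated knock-in replicate 3 (edgeR adjusted p = 0.0888). Rel was lost in DESeq2 (adjusted p = 0.138) and when any of 8 libraries was left out (edgeR adjusted p = 0.051 to 0.181). Markers of several cell types fell with CP775146 too. Of the 8 hepatocyte markers, 6 fell in the knock-in (75%) and 4 in wild type (50%), where 2 rose (25%). Endothelial markers fell in 1 of 11 (9.09%) and 3 of 11 (27.3%), and stellate and fibroblast markers in 3 of 10 (30%) and 0, in the same order. Of 8 cholangiocyte markers, 4 rose (50%) and 2 fell (25%) in the knock-in, and 5 (62.5%) and 2 in wild type. Macrophage markers fell in 5 of 13 in the knock-in (38.5%) and 6 of 13 in wild type (46.2%). Csf1r, for example, averaged 1.35 ± 0.163 CPM in knock-in with CP775146 and 2.14 ± 0.366 CPM in untreated knock-in (edgeR adjusted p = 0.00328).

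The genotypes responded differently to CP775146 in 5 of the 30 genes (16.7%, against 7.11% of all genes), 3 more positive (10%, against 2.78% of all genes) and 2 more negative in the knock-in (6.67%, against 4.33%). Csf1, Ccl2 and Icam1 fell less in the knock-in than in wild type, by 0.58 ± 0.09, 0.53 ± 0.10 and 0.45 ± 0.09 log2 (edgeR adjusted p = 0.000126, 0.000664 and 0.00141). Cxcl16 rose with CP775146 in wild type (0.34 ± 0.06 log2, edgeR adjusted p = 5.5e-06) and was −0.10 ± 0.05 log2 in the knock-in (edgeR adjusted p = 0.089), and that difference of −0.45 ± 0.07 log2 passed the test (edgeR adjusted p = 0.000121). In the knock-in alone Cxcl16 was called lower under total-count scaling (−0.17 log2, edgeR adjusted p = 0.00667), with the compared groups alone (edgeR adjusted p = 0.0407) and in limma voom (adjusted p = 0.0316). Tnfaip2 rose less in the knock-in, as given above. Each of these 5 calls was kept in all 21 alternatives that were run, among them the 0.01 threshold applied to the main fit. Cxcl13 had a larger interaction, 0.95 ± 0.33 log2, that did not pass (edgeR adjusted p = 0.0808) and did so without untreated knock-in replicate 2 (1.15 log2, edgeR adjusted p = 0.0481).

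**Figure D4:**
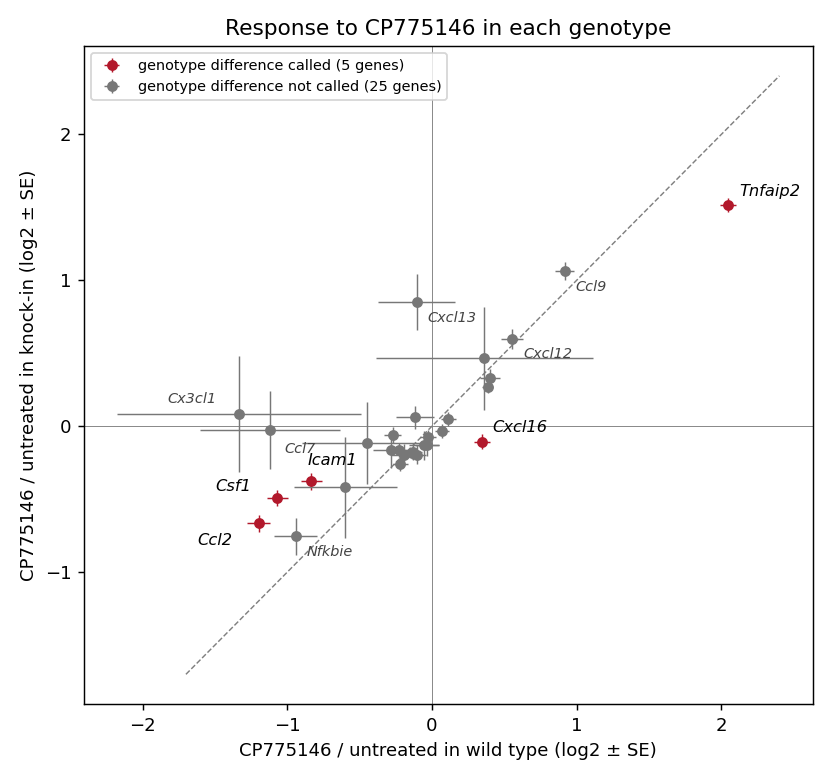
Log2 fold change with CP775146 in wild type (x axis) and in the knock-in (y axis) for the 30 tested genes, with SE bars; the dashed line marks equal responses, and red points are the 5 genes whose responses differed at an edgeR adjusted p below 0.05. Csf1, Ccl2 and Icam1 lie above the line among the falls, and Tnfaip2 and Cxcl16 lie below it.

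The wider pathway was read from further lists of genes that are not among the 42. Of 20 other chemokines, 15 were not tested. Of the 5 tested, 0 rose and 0 fell in the untreated knock-in (median −0.051 log2). Among them were Cxcl9 (0.258 ± 0.105 log2, edgeR adjusted p = 0.0547) and Cxcl10 (−0.316 ± 0.18 log2, edgeR adjusted p = 0.178). With CP775146, 2 of the 5 rose (40%) and 0 fell in the knock-in (median 0.185 log2). No untreated rise like that of the listed chemokines was called in these 5. Of 24 tested receptors and adaptors upstream of NF-κB, 9 rose (37.5%) and 3 fell (12.5%) in the untreated knock-in, with a median of 0.11 log2, where 18.4% of all genes rose and 18.6% fell. With CP775146, 10 rose (41.7%) and 3 fell (12.5%) in the knock-in, where 20.5% of all genes rose and 22% fell. Il1r1, the signalling receptor of interleukin-1, averaged 31.3 ± 1.79 CPM in untreated knock-in and 15.0 ± 2.35 CPM in untreated wild type (1.06 ± 0.08 log2, edgeR adjusted p = 1.23e-11). Its co-receptor Il1rap averaged 17.3 ± 0.310 CPM and 10.5 ± 0.674 CPM in the same groups (0.72 ± 0.07 log2, edgeR adjusted p = 6.27e-10). Cd14, which presents lipopolysaccharide, averaged 32.3 ± 0.816 CPM in untreated knock-in and 21.2 ± 1.16 CPM in untreated wild type (0.61 ± 0.06 log2, edgeR adjusted p = 1.21e-09). Lbp, the lipopolysaccharide-binding protein secreted by hepatocytes, was lower, at 209 ± 4.54 CPM in untreated knock-in and 271 ± 10.02 CPM in untreated wild type (−0.38 ± 0.04 log2, edgeR adjusted p = 7.91e-09).

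Of 18 tested genes of the kinase and ubiquitin machinery, 3 were called for the genotype without treatment. In the untreated knock-in 2 rose (11.1%), Birc2 (cIAP1, 0.65 ± 0.05 log2, edgeR adjusted p = 4.6e-12) and Ikbke (IKKε, 0.62 ± 0.07 log2, edgeR adjusted p = 6.17e-09), and 1 fell (5.56%), Ikbkg (NEMO, −0.24 ± 0.04 log2, edgeR adjusted p = 4.59e-06), and with CP775146 2 rose (11.1%) and 3 fell (16.7%) in the knock-in. These shares lie below those of all genes. Of 14 other inhibitors 2 rose (14.3%) and 4 fell (28.6%) in the untreated knock-in, and 3 rose (21.4%) and 4 fell (28.6%) in the knock-in with CP775146. Of all genes, 18.4% rose and 18.6% fell untreated, and 20.5% rose and 22% fell with CP775146. Otulin, which removes linear ubiquitin chains, fell (−0.47 ± 0.04 log2, edgeR adjusted p = 1.7e-10), and Socs3, an inhibitor of cytokine signalling, averaged 2.85 ± 0.295 CPM in untreated knock-in and 1.38 ± 0.105 CPM in untreated wild type (1.05 ± 0.17 log2, edgeR adjusted p = 1.35e-05). Among 19 tested NF-κB targets outside the 42, 10 rose (52.6%, against 18.4% of all genes) and 4 fell (21.1%, against 18.6%) in the untreated knock-in. Their median was 0.14 log2. With CP775146, 10 rose (52.6%, against 20.5% of all genes) and 5 fell (26.3%, against 22%) in the knock-in. Ccnd1 (cyclin D1) averaged 37.5 ± 1.21 CPM in untreated knock-in and 13.1 ± 1.29 CPM in untreated wild type (1.51 ± 0.06 log2, edgeR adjusted p = 9.84e-18). C3, the complement component, fell in the untreated knock-in (−0.28 ± 0.04 log2, edgeR adjusted p = 2.1e-07).

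With CP775146, 4 of the 24 receptors and adaptors rose (16.7%) and 6 fell (25%) in the knock-in. In wild type 6 rose (25%) and 10 fell (41.7%). Of the 18 kinase and ubiquitin genes, 2 rose (11.1%) and 7 fell (38.9%) in each genotype. Of the 14 other inhibitors 3 rose in each genotype (21.4%), while 4 fell in the knock-in (28.6%) and 3 in wild type (21.4%). Of all genes, 18.1% rose and 19.1% fell in the knock-in, and 22.7% and 22.3% in wild type. The largest single changes were rises. Map3k8 (Tpl2), a kinase held by p105, averaged 6.74 ± 0.669 CPM in knock-in with CP775146 and 2.34 ± 0.327 CPM in untreated knock-in, and 8.40 ± 0.258 CPM in wild type with CP775146 and 1.98 ± 0.376 CPM in untreated wild type (1.52 ± 0.12 log2 in the knock-in and 2.08 ± 0.13 log2 in wild type, edgeR adjusted p = 2.97e-11 and 6.74e-14). Pdlim2, a ligase that degrades nuclear p65, rose by 2.63 ± 0.17 log2 in the knock-in and 3.32 ± 0.19 log2 in wild type (edgeR adjusted p = 1.37e-13 and 1.06e-14). Myd88, the adaptor of Toll-like and interleukin-1 receptors, rose in both genotypes (0.39 ± 0.05 log2 in the knock-in and 0.52 ± 0.06 log2 in wild type, edgeR adjusted p = 9.08e-07 and 1.05e-08). Cyld, a deubiquitinase that restrains NF-κB, fell in both (−0.43 ± 0.04 log2 in the knock-in and −0.40 ± 0.04 log2 in wild type, edgeR adjusted p = 1.59e-09 and 8.4e-09). Lbp fell in both as well (−0.53 ± 0.04 log2 in each, edgeR adjusted p = 7.56e-12 and 5.43e-12 in the same order). Of the 19 targets outside the 42, 3 rose (15.8%) and 6 fell (31.6%) in the knock-in. In wild type 5 rose and 5 fell (26.3% each). Ccnd1 was among the falls (−0.55 ± 0.06 log2 in the knock-in and −0.98 ± 0.08 log2 in wild type, edgeR adjusted p = 3.59e-09 and 2.07e-11).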

How the data were processed

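Libraries were made from total RNA with an Illumina TruSeq kit and sequenced in 2 rounds on a HiSeq3000, per the labels. The deposited tables, 1 for each library, hold raw counts by gene, not normalized. Per the file headers, the authors counted exon reads by gene with featureCounts 1.6.2 on Subread alignments to mm10 with Ensembl release 83, setting no strand or multimapping option, so counts of near-identical genes, which chemokines include, may be uncertain. The submitters' processing notes name featureCounts 1.4.6-p4, FastQC 0.11.2, cutadapt 1.9 and edgeR 3.18.1.

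Genes were kept by filterByExpr with a minimum count of 10 and a minimum total of 15, which retained 99.94% or more of every library. Counts were scaled by TMM and fitted in R 4.3.3 with edgeR 4.0.16 (glmQLFit, robust, and glmQLFTest) with 1 coefficient per group over all 12 libraries. Tests were the genotype in each condition, CP775146 in each genotype and the interaction, with Benjamini-Hochberg adjustment over 15664 genes. In a test on simulated data of the untreated genotype contrast over 15664 genes, 82% of 50 genes changed 2-fold and 44% of 50 changed 1.25-fold were called. DESeq2 1.42.0, limma 3.58.1 (voom), other scalings and filters, the compared groups alone, a 0.01 threshold, replicate blocks and leaving out each library were alternatives.

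Replicate libraries differed beyond counting noise. Library values are printed for genes with at least 1 CPM in a group and a called change of at least 0.5 log2; from other lists up to 4 genes with the smallest adjusted p qualified. Genes at 1 CPM or less are given as counts. The 42 genes, the lists and the tests were chosen with earlier results of these data known. Promoter windows are from RefSeq (GRCm38.p6); 10 of the 42 genes had no entry.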

Additional observations from a re-analysis of the deposited data

Results flagged for a closer look

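Results were listed here when the response to CP775146 differed between the genotypes by the test of that difference itself, at an edgeR adjusted p below 0.05. Cell-type markers were left out of the listing and are counted at its end. Among the 42 genes these were Csf1, with a response higher in the knock-in than in wild type by 0.58 log2, Ccl2 by 0.53 log2 and Icam1 by 0.45 log2, and Tnfaip2 and Cxcl16, with responses lower in the knock-in by −0.54 and −0.45 log2. In the wider lists Cxcl10, an interferon-inducible T-cell attractant, differed by 1.18 log2 (edgeR adjusted p = 0.0026). Cxcl10 averaged 3.90 ± 0.437 CPM in knock-in with CP775146, 2.20 ± 0.280 CPM in untreated knock-in, 2.13 ± 0.661 CPM in wild type with CP775146 and 2.74 ± 0.466 CPM in untreated wild type. Ccnd1 differed by 0.43 log2 (edgeR adjusted p = 0.00557), Pim1, a survival kinase, by −0.51 log2 (edgeR adjusted p = 0.0168), Cdh1 (E-cadherin) by −0.35 log2 (edgeR adjusted p = 0.000214) and Tbk1, an IKK-related kinase, by −0.23 log2 (edgeR adjusted p = 0.0171). Over all genes tested, 7.11% were called for this difference, 2.78% more positive and 4.33% more negative in the knock-in. Of the 8 hepatocyte markers, 1 was more positive (12.5%) and 6 were more negative (75%). Among 8 tested cholangiocyte markers 4 were more negative (50%), as was 1 of 10 tested stellate and fibroblast markers (10%). Cps1, of the hepatocyte markers, differed by 0.618 log2 (edgeR adjusted p = 7.17e-08). Tagln, of the stellate and fibroblast markers, differed by −0.996 log2 (edgeR adjusted p = 2.27e-09). No macrophage or endothelial marker was called.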

How the results depend on the processing

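Of 214 counts of called genes recomputed under alternatives, 211 stayed within 1.5 times the reported count. Total-count scaling, which moved the median of all genes to −0.104 log2 for CP775146 in wild type, and to 0.124 log2 for the knock-in against wild type with CP775146, raised the genes called lower with CP775146 in wild type to 13, adding Rel, Bcl3, Traf2, Vcam1 and Ccl7. Without the filter on low counts, 1 gene, Il1a, was called lower in the untreated knock-in, and 23 were called higher, Nfkbie, Ccl6 and Ptgs2 being added. Ptgs2 was then also called higher in the knock-in with CP775146. Ccl6 passed the filter in 10 of the 12 fits that left out a library, and was called higher in the knock-in in 10 of them untreated and 6 with CP775146. When single libraries were left out, the untreated knock-in had 19 to 22 genes higher and 0 lower throughout, the treated knock-in 21 to 23 higher and 0 to 1 lower (Rela, without wild type with CP775146 replicate 2), CP775146 in the knock-in 6 higher and 7 to 10 lower, CP775146 in wild type 6 higher and 7 to 10 lower, and the interaction 3 to 4 higher and 2 lower. With CP775146, Nfkbia and Sod2 were called higher in the knock-in under total-count scaling (0.13 and 0.13 log2, edgeR adjusted p = 0.0249 and 0.00403), against slightly negative values. The cause was not tested. Lower calls with CP775146 in wild type were gained by Bcl3 without untreated replicate 1 or 3 or treated replicate 1 (edgeR adjusted p = 0.0266, 0.0289 and 0.042), Ccl7 without untreated replicate 1 (edgeR adjusted p = 0.0456) and Vcam1 without treated replicate 3 (edgeR adjusted p = 0.0319). Of 3169 values of single genes, 40 lost their call, 28 gained one, and 70 changed sign without a call in either setting. Same-numbered libraries of different groups did not deviate together (correlations −0.03 to 0.06 over 18 pairs). Technical repeats would not deviate together either, so this cannot show whether the groups shared mice or cell preparations. With the replicate number as a block, 9 genes were lower with CP775146 in the knock-in in place of 10, Rel being lost (−0.20 log2, edgeR adjusted p = 0.0525), and no other call among the 30 changed. Genes under 1 CPM, such as Cx3cl1, Ccl20, Ccl7, Cxcl2 and Ccl5, are limited by depth.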

Other observations

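Chemokine receptors and adhesion genes outside the 42 were read in the same way. Ackr3, a scavenger receptor of CXCL12, averaged 0.423 ± 0.163 CPM in untreated knock-in and 3.03 ± 0.322 CPM in untreated wild type (−2.83 ± 0.23 log2, edgeR adjusted p = 4.08e-11). Ccrl2, an atypical receptor induced by inflammation, averaged 1.93 ± 0.261 CPM in untreated knock-in and 1.15 ± 0.0919 CPM in untreated wild type (0.74 ± 0.19 log2, edgeR adjusted p = 0.00209). These were the genes called among 7 tested chemokine receptors in that comparison, 14.3% higher and 14.3% lower, shares below the 18.4% and 18.6% of all genes. In the knock-in with CP775146, 1 of the 7 rose (14.3%) and 2 fell (28.6%), against 20.5% and 22% of all genes. Of 9 other tested adhesion genes 4 were called in the untreated knock-in (44.4%), all of them higher, where 18.4% of all genes rose and 18.6% fell, with a median of 0.22 log2. In the knock-in with CP775146, 3 rose (33.3%) and 3 fell (33.3%), against 20.5% and 22% of all genes, with a median of −0.07 log2. Cd44, the hyaluronan receptor, averaged 8.57 ± 0.599 CPM in untreated knock-in and 3.70 ± 0.220 CPM in untreated wild type (1.21 ± 0.11 log2, edgeR adjusted p = 1.67e-10), and Alcam 266 ± 2.57 CPM and 211 ± 11.4 CPM in the same groups (0.33 ± 0.04 log2, edgeR adjusted p = 7.3e-08). Itga4, an integrin subunit that binds VCAM1, rose with CP775146 in both genotypes. It averaged 1.89 ± 0.451 CPM in knock-in with CP775146 and 0.707 ± 0.152 CPM in untreated knock-in (edgeR adjusted p = 1.7e-05), and 1.99 ± 0.439 CPM in wild type with CP775146 and 0.672 ± 0.171 CPM in untreated wild type (edgeR adjusted p = 7.59e-06).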
